A study of Mus musculus with 6 samples.

Results

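The genes described here are the endosomal and lysosomal proteases Lgmn (legumain), Ctsb, Ctsc, Ctsd, Ctsh, Ctsk, Ctsl and Ctsz (cathepsins B, C, D, H, K, L and Z), and Cst3, which encodes the protease inhibitor cystatin C. Every probe set of the array whose platform annotation names exactly 1 of these symbols was taken. That gave 14 probe sets for 9 genes, of 22626 probe sets that are not controls and of 12393 genes named by a probe set with 1 symbol. Ctsb had 4 probe sets, Ctsz had 3, and each other gene had 1. No probe set named a member together with another gene.

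RNA was measured in mouse dendritic cells, which take up, degrade and present antigen, on 6 Affymetrix MOE430A arrays, 1 for each group. Bone marrow of a 13-week-old female mouse, called CAR-transgenic in the labels, was grown as progenitors for 7 days and then for 7 days in GM-CSF at 250 U/ml, a treatment that all groups share. Cells then received no virus, AdOVA (the control adenovirus) or AdIkBa-SR, an adenovirus carrying the super-repressor form of IkBa, which holds the transcription factor NF-kB inactive. Transduction used 1500 particles per cell and lasted 2 h, with a further 18 h in culture. In each of these 3 states 1 group then received TNFa at 50 ng/ml for 4 h, a cytokine that switches NF-kB on, and 1 did not. Below, 2 signals given together for a virus state are without and with TNFa, in that order. The protocol names 1 mouse and no group received a mock transduction. Nothing in the labels says that cultures were grown separately for each group, so the spread below can be technical.

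Lysosomal cysteine and aspartic proteases are made as inactive proenzymes, sorted to endosomes and lysosomes, and activated at acid pH by self-cleavage or by each other. Legumain cuts after asparagine and helps to mature several cathepsins. In dendritic cells these enzymes degrade endocytosed protein and process the invariant chain of MHC class II, while cystatin C inhibits papain-like cathepsins and, at a separate site, legumain.

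Values are MAS5 signals, the linear brightness of a probe set after each array has been set to a common average. Signals of different probe sets are not comparable as levels, so each probe set is compared only with itself. A signal under 53.5, the 40th percentile of all signals, was set to that floor. Probe sets that exceeded the floor on 2 or more arrays, 14906 in all, were taken as measured. All 14 member probe sets were above the floor on all 6 arrays. There are no replicate arrays. Each comparison of virus states was therefore read in 2 pairs of arrays, without and with TNFa, and a log2 difference below is the mean of both pairs unless it is called a pair difference. Its SE and p-value come from limma, with Benjamini-Hochberg adjustment over all measured probe sets. The limma fit takes its spread from 1 residual degree of freedom, the mismatch of the TNFa response between cells without virus and cells with AdOVA, pooled over probe sets. It assumes that the AdIkBa-SR arrays vary like the others. A call is an adjusted p under 0.05. On simulated data a larger share of this fit's calls was false than that threshold states, the largest for 2-fold changes. The simulated fits pooled the spread over probe sets more strongly than the real fit did, so the size of this error here is not known. Coverage of the intervals was not measured. Adjusted p-values may be too small and intervals too narrow, and neither should be taken at face value.

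The arrays differed in ways that bear on the members. Median signals ran from 74.4 to 88.5, and 57.9% to 63.4% of probe sets lay above the floor. The AdOVA+TNFa array gave a signal of 2601 for the 5′ probe set of 18S ribosomal RNA, where the others gave 120.3 to 537. The array headers place the untreated, TNFa and AdOVA arrays in 1 fluidics round and the other 3 in another. The AdIkBa-SR array alone was washed with 0 cycles and stained for 420 s, against 10 and 4 wash cycles and 600 s elsewhere. Of 9 dendritic cell markers 8 were measured, among them Cd74, H2-Aa, H2-Ab1 and Itgax, and Flt3 was not. Of 9 macrophage markers 8 were measured too, with Csf1r between 4773 and 8848, so the labelled cell type was not set apart from macrophages by these lists.

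Legumain was the only member that limma called in any comparison. Its signals were 974 and 1074 in cells without virus. After AdOVA they were 485 and 584. After AdIkBa-SR they were 1746 and 1621. Both AdOVA arrays lay below all others and both AdIkBa-SR arrays lay above all others, so the 3 virus states did not overlap. Of all measured probe sets, 11.7% had the first pattern and 4.27% the second. The share with both was not counted. The highest signal was 3.60 times the lowest, a range of 1.85 on the log2 scale, and 3.84% of all measured probe sets had a wider one. The arrays at its ends, AdIkBa-SR and AdOVA without TNFa, also differ in fluidics round and in wash and stain settings. Among probe sets with a mean signal above 1000, like that of Lgmn, 7.9% did.

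**Figure D1:**
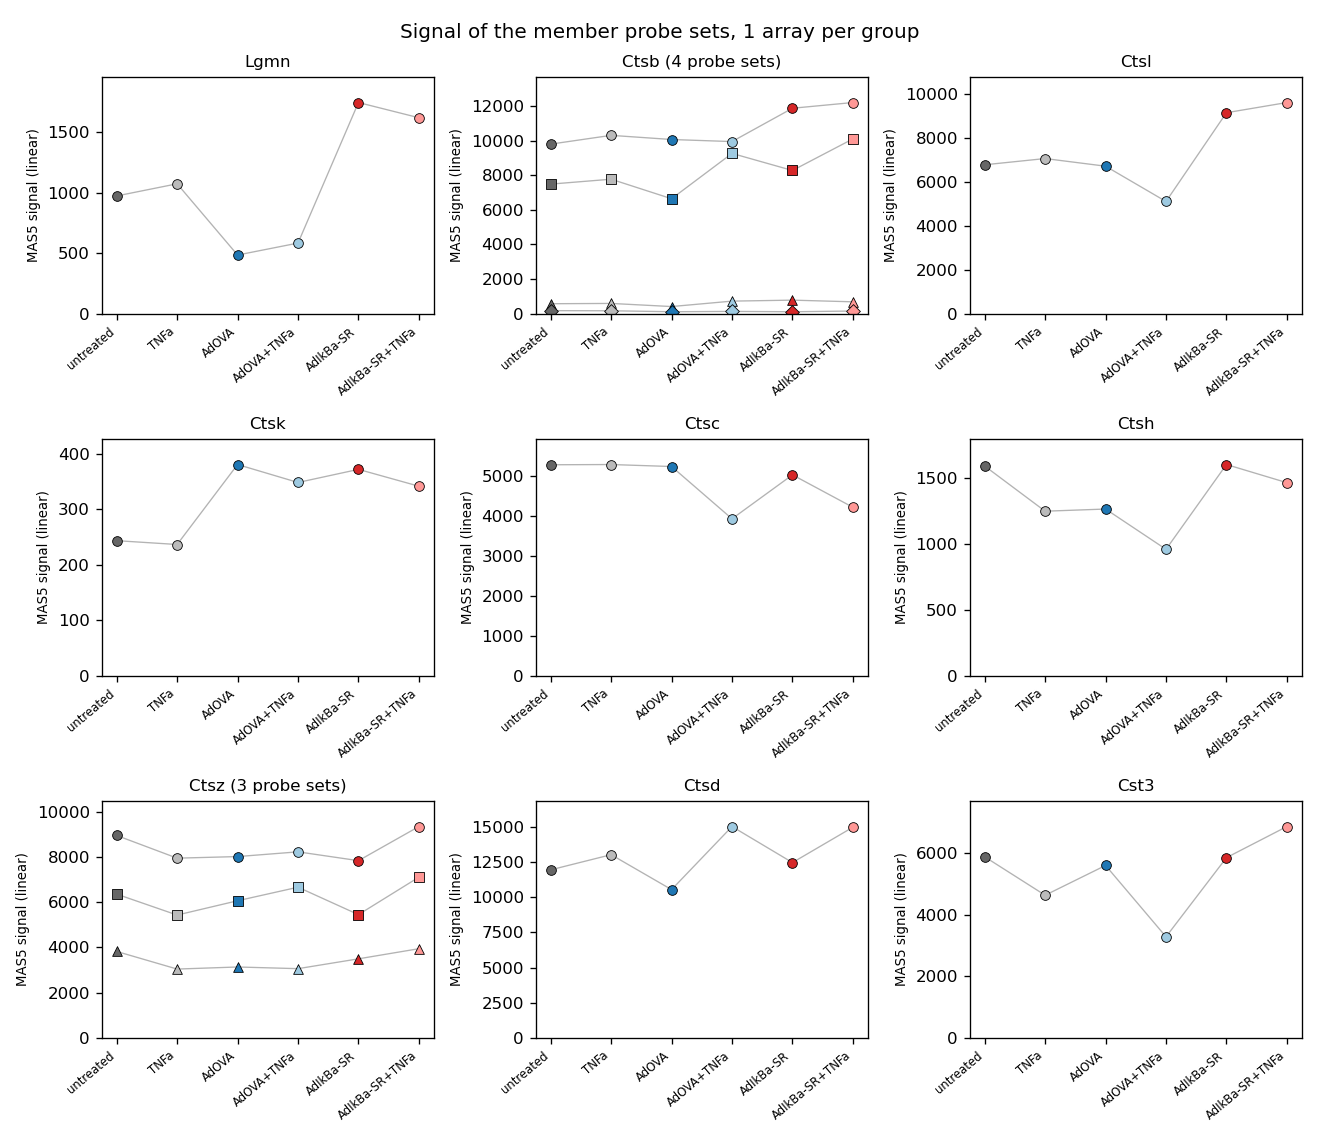
MAS5 signal (linear, vertical axes from 0) of each member gene on the 6 arrays, 1 point per array and 1 marker shape per probe set; grey lines join the points of a probe set and imply no order of the groups. Lgmn separates into 3 levels by virus state, from 485 with AdOVA to 1746 with AdIkBa-SR, and Ctsk is higher on the 4 virus arrays.

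With AdOVA, Lgmn fell by 0.94 on the log2 scale (SE 0.24, adjusted p = 0.020, limma), to 0.520 times its level without virus. The pair differences were -1.01 without TNFa, within 1 fluidics round, and -0.88 with TNFa. Lgmn was the 1 member probe set of 14 that limma called lower, where 3.86% of all measured probe sets were called lower and 4.03% higher, and no member was called higher. By the plain rule of at least 2-fold in both pairs, 0 of 14 members were lower, against 1.37% of all measured probe sets. The limma call ended under 7 of 10 alternatives, among them an additive fit of virus and TNFa (adjusted p = 0.056), the same fit without the AdOVA+TNFa array (adjusted p = 0.33) and the same fit with the fluidics round as a block (adjusted p = 0.34). RNA from all cells of a culture was pooled on each array, so fewer cells that express a gene and less of its RNA per cell cannot be told apart.

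AdIkBa-SR cells held more Lgmn RNA than AdOVA cells. The difference was 1.66 on the log2 scale (SE 0.24, adjusted p = 0.00034, limma), or 3.16-fold, with a 95% interval of 2.24-fold to 4.46-fold. It was 3.60-fold in the pair without TNFa and 2.78-fold in the pair with TNFa. That was 1 of 14 members called higher by limma, where 3.47% of all measured probe sets were, and 1 of 14 by the 2-fold rule, where 1.13% were. No member was called lower, against 3.39%. This comparison and the previous one share the AdOVA arrays, so low values there enter both. The pair with TNFa lies within 1 fluidics round and has the same wash settings on both arrays. The pair without TNFa differs in round and in wash settings. In the additive fit the adjusted p was 0.013 with all arrays and 0.34 without the AdOVA+TNFa array, where the difference was 1.79.

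The difference from cells without virus does not use the AdOVA signals. Lgmn in AdIkBa-SR cells was 1.65 times as high as without virus, a log2 difference of 0.72 (SE 0.24). It was not called (adjusted p = 0.61, limma, and 0.0069 before adjustment). The pair differences were 0.84 and 0.59, the same direction in both. Each pair sets an array of 1 fluidics round against an array of the other, so virus state and round are not separated. The pair without TNFa also differs in wash and stain settings. In the additive fit with the round as a block the difference was 0.47. In this comparison limma called 0.0335% of all measured probe sets higher and 0% lower, and the 95% interval for Lgmn ran from 1.17-fold to 2.32-fold. TNFa left Lgmn at 1.15 times its level without TNFa (log2 0.21, SE 0.24, adjusted p = 0.81, limma), with an interval from 0.818 to 1.63.

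The Lgmn promoter windows are shown because legumain carried the calls and AdIkBa-SR acts on NF-kB; the Ctsd window is shown because it holds the same lysosomal gene element while the Ctsd signal gave no call. RefSeq on GRCm38.p6 gives 2 transcription starts for Lgmn, both on the minus strand of chromosome 12. The windows run 5′ to 3′ on the gene's strand, with 300 bases each. Capitals mark matches to the NF-kB site consensus (kB), to the lysosomal gene element (TCACGTG) and to the TATA box (TATAAA), each searched on both strands. The GAS and ISRE elements of cytokine and interferon response were searched as well.

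Lgmn, upstream start, chr12:102439679-102439978 (minus strand): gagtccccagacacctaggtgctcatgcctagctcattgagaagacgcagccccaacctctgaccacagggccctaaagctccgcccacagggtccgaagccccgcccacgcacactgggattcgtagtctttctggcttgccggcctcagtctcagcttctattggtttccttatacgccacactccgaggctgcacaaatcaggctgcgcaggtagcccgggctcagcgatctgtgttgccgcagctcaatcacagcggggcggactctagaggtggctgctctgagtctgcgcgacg
Lgmn, downstream start, chr12:102439043-102439342 (minus strand): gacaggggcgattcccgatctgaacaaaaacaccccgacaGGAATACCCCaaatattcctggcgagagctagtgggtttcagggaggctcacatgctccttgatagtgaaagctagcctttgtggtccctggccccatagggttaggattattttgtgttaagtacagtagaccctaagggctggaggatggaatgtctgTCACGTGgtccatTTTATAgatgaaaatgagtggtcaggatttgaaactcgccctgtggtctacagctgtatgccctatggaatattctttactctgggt
Ctsd, chr7:142387778-142388077 (minus strand): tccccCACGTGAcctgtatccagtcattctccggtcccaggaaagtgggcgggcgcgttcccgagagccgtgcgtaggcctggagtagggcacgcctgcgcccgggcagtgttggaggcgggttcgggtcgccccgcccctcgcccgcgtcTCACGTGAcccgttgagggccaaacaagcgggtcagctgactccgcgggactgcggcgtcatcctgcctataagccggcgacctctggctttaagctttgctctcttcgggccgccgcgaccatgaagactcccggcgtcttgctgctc

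The upstream Lgmn window held no match. The downstream window held a kB match (GGAATACCCC, first base at -210 with the start base as 0), the lysosomal gene element at -50 and a reversed TATA box at -37. Among 32851 RefSeq promoter windows of this length, 4.51% held the kB consensus, 3.77% the lysosomal gene element and 13.6% the TATA box. The lysosomal gene element contains the E-box CACGTG, which 7.15% of windows held. The Ctsd window held the lysosomal gene element at 2 places, at 1 of them as overlapping matches on both strands. Windows for Cst3, Ctsk and Ctsz held none of these motifs, Ctsl held the E-box alone, and Ctsc held 1 GAS match (8.3% of windows). The ISRE, found in 3.44% of windows, was in none of the 8 member windows. The table has 8 windows for 7 of the 9 genes. The probe set does not tell which Lgmn start was used, and a match of letters is a description, not a bound site.

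Cathepsins B and L, endopeptidases of broad specificity, gave no call. The Ctsl signals were 6767 and 7050.2 in cells without virus, 6703 and 5098 after AdOVA, and 9134 and 9597 after AdIkBa-SR. Its 3 virus states did not overlap either, although the AdOVA array was only just below the untreated one. The share of all measured probe sets with 3 such separate states was not counted. The pattern of both AdIkBa-SR arrays above the other 4 was found for 3 of 14 member probe sets (Lgmn, Ctsl and the brightest of Ctsb) and for 4.27% of all measured probe sets. Both AdOVA arrays lay below the other 4 for 2 of 14 (Lgmn and Ctsl), against 11.7%. The Ctsl difference between AdIkBa-SR and AdOVA was 0.68 on the log2 scale (SE 0.33, adjusted p = 0.22, limma), with pair differences of 0.45 and 0.91 and an interval from just below 0 to 1.36. Against no virus it was 0.44 (SE 0.33, adjusted p = 0.99, limma).

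The brightest Ctsb probe set (1417490_at) had signals of 9804 and 10312 in cells without virus, 10071 and 9952 after AdOVA, and 11879.8 and 12210.5 after AdIkBa-SR. The AdIkBa-SR arrays were the highest, but the whole range was 1.25-fold and 95.3% of measured probe sets ranged wider. The difference from AdOVA was 0.27 (SE 0.36, adjusted p = 0.70, limma). The second Ctsb probe set (1448732_at) ran from 6645 after AdOVA alone to 10106 after AdIkBa-SR with TNFa. The other Ctsb probe sets were dimmer, at 408 to 779 (1417492_at) and 107.7 to 171.6 (1417491_at). The 4 probe sets differed in their AdOVA differences, from -0.51 to 0.04, and against no virus from -0.40 to 0.33 with AdIkBa-SR. For AdIkBa-SR over AdOVA all 4 lay above 0, between 0.11 and 0.43. None of these passed the limma threshold.

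Cathepsin K, the collagen-degrading protease best known from osteoclasts, was the member highest with AdOVA relative to no virus. Its signals were 243 and 236 in cells without virus, 380.4 and 348 after AdOVA, and 372 and 341 after AdIkBa-SR. All 4 virus arrays lay above both arrays without virus, a pattern that 1 of 14 members and 6.18% of all measured probe sets showed. The difference was 0.60 for AdOVA (SE 0.27, adjusted p = 0.18, limma, and 0.035 before adjustment) and 0.57 for AdIkBa-SR (SE 0.27, adjusted p = 0.90). Neither was called. Between the viruses Ctsk differed by -0.03, with an interval from -0.59 to 0.53. Of 7 osteoclast markers only Acp5 and Oscar were measured, and their summed signal ran from 294 after AdOVA alone to 502 in untreated cells. Of 7 fibroblast markers 3 were measured, with a sum of 351 to 452 without virus, 393 to 584 with AdOVA and 275 to 319 with AdIkBa-SR. Neither sum was higher on all 4 virus arrays.

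The exopeptidases gave no call. Ctsc, the dipeptidyl peptidase that activates granule serine proteases, gave 5283 and 5289 in cells without virus, 5239 and 3929 after AdOVA, and 5030.1 and 4217 after AdIkBa-SR. The low arrays were both virus arrays with TNFa. All 4 virus arrays lay below both arrays without virus for Ctsc and for the dimmest Ctsb probe set, 2 of 14 members, against 7.55% of all measured probe sets. The TNFa difference of Ctsc was -0.21 (SE 0.30, adjusted p = 0.85, limma) without virus and with AdOVA, and -0.25 (SE 0.42, adjusted p = 1.0) with AdIkBa-SR.

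Ctsh, an aminopeptidase, gave 1594 and 1251 in cells without virus, 1267 and 961 after AdOVA, and 1606 and 1468 after AdIkBa-SR. In each virus state the array with TNFa was the lower one, a pattern whose share over all measured probe sets was not counted. The TNFa difference was -0.37 (SE 0.24, adjusted p = 0.60, limma), with an interval from -0.88 to 0.13. AdIkBa-SR over AdOVA was 0.48 (SE 0.24, adjusted p = 0.25, limma), with 0.34 and 0.61 in the pairs.

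Ctsz, a carboxypeptidase, had the narrowest range of the members' brightest probe sets. Its brightest probe set (1417868_a_at) gave 8967 and 7961 in cells without virus, 8031 and 8241 after AdOVA, and 7849 and 9364 after AdIkBa-SR. The 3 Ctsz probe sets ranged over 1.19-fold to 1.31-fold, and at least 92.1% of all measured probe sets ranged wider than each of them. Their AdOVA differences ran from -0.14 to 0.11 and disagreed in sign. For the brightest, the 95% interval of the AdOVA difference ran from -0.76 to 0.65, so changes within that span could not be seen.

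Cathepsin D, the main aspartic protease of lysosomes, gave 11966 and 13048 in cells without virus, 10556 and 15056 after AdOVA, and 12484 and 15006 after AdIkBa-SR. The array with TNFa was the higher one in each virus state, a pattern whose share over all measured probe sets was not counted. The TNFa difference was 0.32 (SE 0.38, adjusted p = 0.81, limma) without virus and with AdOVA, and 0.27 (SE 0.53, adjusted p = 1.0) with AdIkBa-SR. AdOVA differed from no virus by 0.01 and AdIkBa-SR from AdOVA by 0.12, neither called.

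Cystatin C had the widest range after legumain, 1.07 on the log2 scale. Of all measured probe sets 30.2% ranged wider, and 41.0% of those with a mean signal above 1000. Cst3 gave 5878 and 4629 in cells without virus, 5597 and 3278 after AdOVA, and 5850.1 and 6862 after AdIkBa-SR. The AdOVA+TNFa array, which had the high 18S signal, was the lowest. The TNFa difference was -0.56 (SE 0.30, adjusted p = 0.52, limma), from -0.34 without virus and -0.77 with AdOVA. In AdIkBa-SR cells it was 0.23 (SE 0.43), and the 2 responses differed by 0.79 (SE 0.52, adjusted p = 1.0 for the interaction, limma). An additive fit, which also averages in the AdIkBa-SR arrays, gave a TNFa difference of -0.30 with all arrays and of -0.06 without the AdOVA+TNFa array. AdIkBa-SR over AdOVA was likewise 0.06 in the pair without TNFa and 1.07 in the pair with it, and its mean of 0.56 was not called (SE 0.30, adjusted p = 0.28, limma). Whether the 18S signal had a part in the Cst3 value was not tested.

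**Figure D2:**
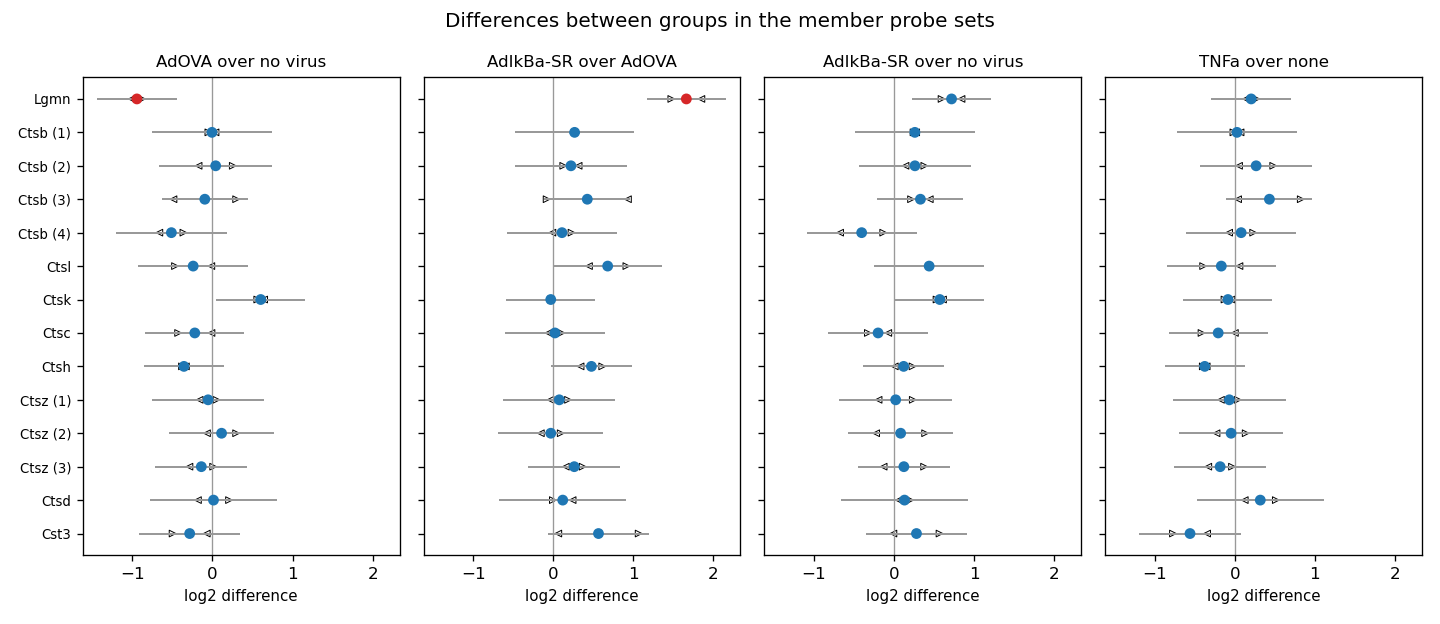
Log2 differences (horizontal axes) of the 14 member probe sets, in rows numbered within a gene, for 4 comparisons: filled points are means of 2 pairs of arrays, grey bars 95% intervals from limma, left and right open triangles the pairs without and with TNFa (in the TNFa panel, without virus and with AdOVA), and red marks limma's calls. Lgmn is red at -0.94 for AdOVA and at 1.66 for AdIkBa-SR over AdOVA, and no other point is.

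Apart from Lgmn, the 13 other member probe sets had AdOVA differences from -0.51 to 0.60 (lowest adjusted p 0.18, limma) and AdIkBa-SR over AdOVA differences from -0.03 to 0.68 (lowest adjusted p 0.22). Over all 14, the median was -0.12 for AdOVA, where all measured probe sets had 0.06. It was 0.24 for AdIkBa-SR over AdOVA, where they had -0.09. There 12 of 14 member probe sets lay above 0, but 4 of the 14 are for Ctsb and 3 for Ctsz. The share of all measured probe sets above 0 was not counted. Setting the arrays to equal medians moved the median of all measured probe sets by -0.135 for AdOVA and by 0.160 for AdIkBa-SR over AdOVA. It also turned the calls over all probe sets from 600 higher and 575 lower to 236 and 419 for AdOVA, and from 517 and 506 to 450 and 190 for AdIkBa-SR over AdOVA. Quantile normalization gave 206 and 107, and 57 and 127. Lgmn kept its direction under both, at -1.10 and -0.91 for AdOVA and 1.85 and 1.58 for AdIkBa-SR over AdOVA. The SE of a member was 0.24 to 0.38 in the comparisons of virus states.

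TNFa for 4 h gave no call in any member. In cells without virus and with AdOVA, limma called 0 of 14 members in either direction and none had an unadjusted p under 0.05. Of all measured probe sets, limma called 0.0268% higher and 0% lower, and 1653 (11.1%) had an unadjusted p under 0.05. The members' TNFa differences ran from -0.56 for Cst3 to 0.43 for a dim Ctsb probe set, with a median of -0.06 beside 0.04 for all. In AdIkBa-SR cells limma called 0 of 14 members and 0% of all probe sets in either direction, with unadjusted p under 0.05 for 0 members and for 5.1% of all. The test of the difference between the TNFa responses called none as well (adjusted p = 1.0 for every member, limma), with unadjusted p under 0.05 for 0 members and for 4.94% of all.

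Other genes of the lysosomal pathway were read from 8 lists, by the brightest probe set of each gene. Of 142 listed genes 95 were measured. With AdOVA limma called 9 of 95 lower (9.47%) and 0 higher, where 3.45% of all measured genes were called lower and 4.11% higher. The median difference of the 95 was -0.24, beside 0.07 for all genes. For AdIkBa-SR over AdOVA limma called 8 of 95 higher (8.42%) and 0 lower, where 3.13% of all measured genes were called higher and 3.46% lower, and the median was 0.27 beside -0.10. Under equal medians and quantile normalization, the 9 and the 8 called genes each kept their sign. These genes were called in the same data, so a kept sign is a weak check. Quantile normalization left 2 and 0 calls. The additive fit called 2 and 3 of 95 with all arrays. Without the AdOVA+TNFa array it called 0 of 95 in either comparison, as were 0 of all measured probe sets (unadjusted p under 0.05 for 2062 and 1956, limma). The AdOVA arrays serve both comparisons here too.

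Among 35 measured lysosomal hydrolases, limma called 4 lower with AdOVA and 3 higher in AdIkBa-SR than in AdOVA cells. Lipa, the acid lipase that frees cholesterol from its esters, gave 1792 and 1512 in cells without virus, 709 and 753 after AdOVA, and 1528 and 1721 after AdIkBa-SR. It fell by 1.17 with AdOVA (SE 0.24, adjusted p = 0.0055, limma) and was 1.15 higher in AdIkBa-SR than in AdOVA cells (SE 0.24, adjusted p = 0.0075). Both AdOVA arrays lay below the other 4, as for 11.7% of all measured probe sets. Unlike for Lgmn, the AdIkBa-SR arrays lay within the span of the arrays without virus. Hexa, a subunit of beta-hexosaminidase, fell by 1.15 (adjusted p = 0.014) and was 1.11 higher (adjusted p = 0.019, limma). Gusb, beta-glucuronidase, fell by 0.95 (adjusted p = 0.024) and was 1.18 higher (adjusted p = 0.0078, limma). Manba, beta-mannosidase, fell by 1.13 (adjusted p = 0.022, limma), and was 0.75 higher without a call (adjusted p = 0.13).

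Of 16 measured subunits of the vacuolar proton pump, which acidifies lysosomes, limma called 2 lower with AdOVA and 3 higher with AdIkBa-SR than with AdOVA. Atp6v0a1 fell by 1.03 (adjusted p = 0.026) and Atp6v1g1 by 0.84 (adjusted p = 0.038, limma). Atp6v1g1, Atp6ap1 and Atp6v0d1 were higher by 0.87, 0.85 and 0.83 (adjusted p 0.035, 0.042 and 0.042, limma). Of 9 measured genes for sorting and activating lysosomal enzymes, Sumf1, which activates sulfatases, and Gga2, an adaptor at the trans-Golgi, fell with AdOVA by 1.07 each (adjusted p 0.026 and 0.048, limma). Neither was called in the other comparison, where Gga2 was at 0.97 (adjusted p = 0.074).

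Of 17 measured membrane and accessory proteins, Cd68, a lysosomal glycoprotein of phagocytes, was 1.11 higher in AdIkBa-SR than in AdOVA cells (adjusted p = 0.016, limma). None was called lower with AdOVA, where Cd68 was at -0.70 and Scarb2 at -0.68 (adjusted p 0.11 and 0.087, limma). Of 3 measured factors of the family of the lysosomal regulator TFEB, limma called only Tfec. The median of the 3 was -0.46 for AdOVA and 0.91 for AdIkBa-SR over AdOVA. Tfec gave 1086 and 1027 in cells without virus, 476 and 322 after AdOVA, and 1098 and 690.3 after AdIkBa-SR. Tfec fell by 1.43 with AdOVA (SE 0.24, adjusted p = 0.0013, limma) and was 1.15 higher with AdIkBa-SR than with AdOVA (adjusted p = 0.0078). Both AdOVA arrays lay below the others, as for 11.7% of all measured probe sets.

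The closest relatives of the members gave no call in these comparisons. Of 15 other cathepsins 4 were measured. Ctss, the cathepsin best known for processing the invariant chain, gave between 11419 and 14065 on the 6 arrays, with differences of 0.01 for AdOVA and 0.08 for AdIkBa-SR over AdOVA (SE 0.37 for both). Of 17 other cystatins and stefins 3 were measured. Cst7, cystatin F, which inhibits Ctsc, was at -0.86 with AdOVA (adjusted p = 0.084, limma), and Stfa3, a stefin, at 0.62 (adjusted p = 0.15). Of 8 measured genes for the invariant chain and MHC class II loading, H2-Ab1 was at 0.61 with AdOVA (adjusted p = 0.14, limma) and Cd74, the invariant chain itself, at 0.35 for AdIkBa-SR over AdOVA (adjusted p = 0.48). For AdIkBa-SR over no virus and for TNFa, limma called 0 of 95 pathway genes in either direction, where it called 0.0448% and 0.0112% of all measured genes higher.

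**Figure D3:**
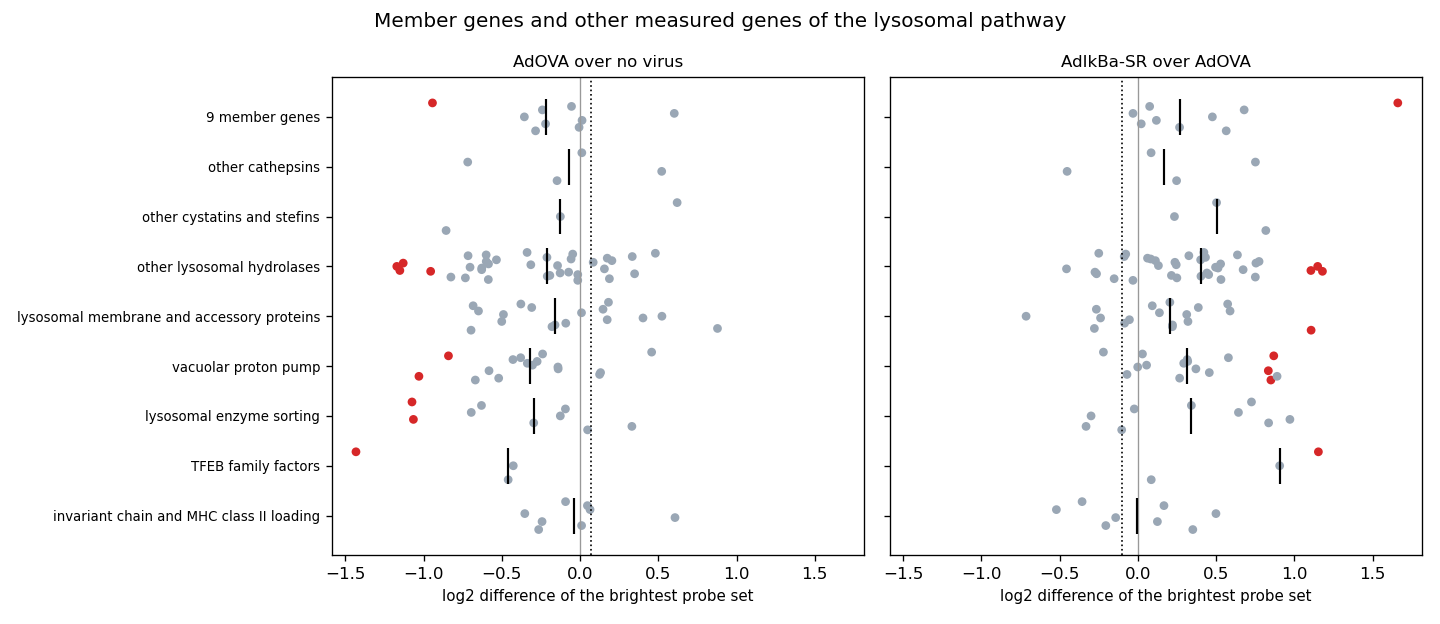
Log2 differences (horizontal axes) of the 9 member genes and of the measured genes of 8 lists of lysosomal pathway genes (rows), by brightest probe set; red points are limma's calls, black bars list medians and the dotted line the median of all measured genes. Calls lie on the left for AdOVA (9 list genes and Lgmn) and on the right for AdIkBa-SR over AdOVA (8 list genes and Lgmn), and the 2 panels share the AdOVA arrays.

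Some markers of other cells were also higher in AdIkBa-SR than in AdOVA cells. Of 8 neutrophil markers 7 were measured. Their summed signal was 9529 to 17333 on the AdOVA arrays, 12585 to 19580 without virus and 22953 to 24677 on the AdIkBa-SR arrays, and Ltf and Camp, 2 of 7, were called higher in AdIkBa-SR than in AdOVA cells. Of all measured genes, limma called 3.13% higher in that comparison. With AdOVA limma called 0 of 7, and the sums overlapped those without virus. All 5 mast cell and basophil markers were measured, with sums of 1055 to 1102, 1252 to 1465 and 1685 to 1747 in the same order, and Cpa3 and Mcpt8 were called higher in the same comparison. Cpa3 was also called lower with AdOVA, as were 3.45% of all measured genes. Macrophage markers summed to 25569 to 30301 with AdOVA, 23486 to 25971 without virus and 23736 to 24831 with AdIkBa-SR, a sum that rests on the bright Cd14 and Csf1r probe sets. Over the 8 measured macrophage markers the median difference was -0.41 for AdOVA, with 0 called, and 0.30 for AdIkBa-SR over AdOVA, with Msr1 called higher. The dendritic cell marker Itgax was 247 and 329 on the AdOVA arrays, 699 and 755 without virus, and 664 and 847 with AdIkBa-SR, with a call in both comparisons. Other dendritic cell markers went the other way: Ccr7 was called higher with AdOVA (1.29) and lower in AdIkBa-SR than in AdOVA cells (-1.68), where Zbtb46 was called lower too. Of all measured genes, 4.11% were called higher with AdOVA and 3.46% lower in AdIkBa-SR than in AdOVA cells. The medians of the dendritic cell list were 0.04 and -0.17. With the fluidics round as a block, limma called 0 of all measured probe sets in both comparisons. The B cell, T cell, NK cell and erythroid lists had 1 or 2 measured markers each, with sums of at most 139.7 on any array. No list summed to 0. The part of these cells in the Lgmn values was not tested.

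The genes whose profile over the 6 arrays was most like that of Lgmn were Adgrg3, an adhesion G protein-coupled receptor, Noc4l, a nucleolar protein, and Padi4, a peptidylarginine deiminase. Likeness was the root mean square distance between log2 profiles centred on their means, over 6795 genes above the floor on every array, and it was 0.13, 0.22 and 0.25. Adgrg3 gave 354 and 398 in cells without virus, 214 and 259 after AdOVA, and 622 and 668 after AdIkBa-SR. The order of the virus states was the same as for Lgmn.

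**Figure D4:**
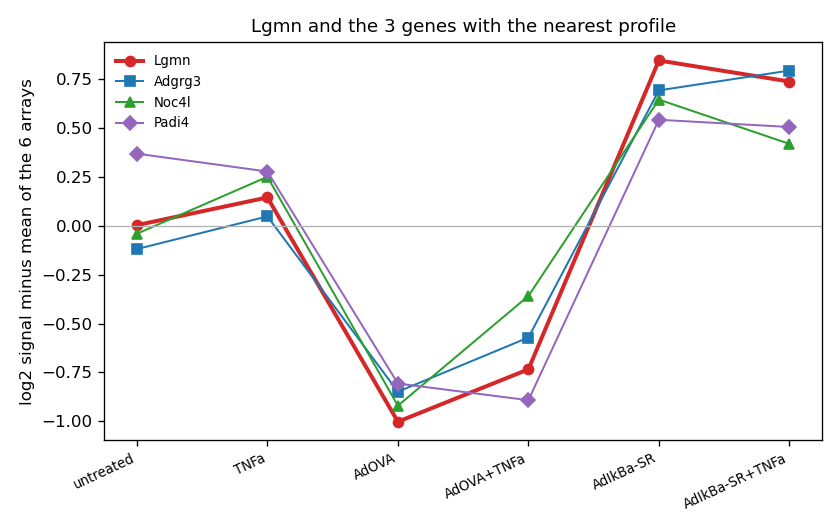
Log2 signal minus its mean over the 6 arrays (vertical axis) for Lgmn and the 3 genes nearest to it, by array. All 4 are lowest on the AdOVA arrays, and the AdIkBa-SR arrays lie above the others.

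For Ctsl the nearest genes were Ch25h, Lsm10 and Sdf2l1 (0.05 to 0.06), and Ch25h, cholesterol 25-hydroxylase, gave 374 and 377 with AdIkBa-SR against 199.6 to 274 elsewhere. For Ctsk they were Slfn1, Klf1 and Cd300lf (0.09 to 0.11), with Slfn1 at 1956 and 1982 without virus and 2739 to 3376 with either virus. For Cst3 they were Rpl19, a ribosomal protein, Tnpo3, a nuclear import receptor, and Ppib, a cyclophilin (0.06 to 0.08). Rpl19 was lowest at 2497 on the AdOVA+TNFa array, as Cst3 was, and 3786 to 5035 elsewhere. The other 5 members had nearest genes at 0.04 to 0.07, such as Ywhah for Ctsb, Gstm1 for Ctsz, Ylpm1 for Ctsc, Nrd1 for Ctsd and Slc6a13 for Ctsh. Such profiles rest on 6 arrays and share their array effects.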

How the data were processed

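RNA of 6 groups of mouse cells was measured on 1 array each. The authors deposited linear intensity values, 1 for each probe set of each array; the submitters' processing notes name MAS5 as the software. MAS5 scales arrays to the same average, so a shift of most genes in 1 direction cannot be seen. Wash and fluidics settings were read from the deposited array headers. Of 22690 probe sets 64 are controls; the platform annotation gives 20380 of the others 1 symbol, 691 several and 1555 none.

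Signals were set to a floor of 53.5 and log2 taken. limma 3.58.1 in R 4.3.3 (lmFit, eBayes with a trend) was fitted to all measured probe sets with 5 coefficients: 3 virus states, a TNFa response common to the no-virus and AdOVA arrays, and a separate one in AdIkBa-SR cells. The fit was tested on simulated data. With 1 array per group, the number of arrays limits precision. The alternatives were 2 scalings, another floor, an offset of 16, no filter, no trend, additive fits and the omission of an array. List members were named by size of difference among calls or, without a call, by the smaller pair difference; nearest genes by distance between centred log2 profiles. Promoters are from RefSeq (GRCm38.p6). Members and lists were chosen with earlier results of these data known.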

Additional observations from a re-analysis of the deposited data

How the results depend on the processing

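No paired analysis was possible because the labels give no replicate numbers that groups could share; arrays were paired by TNFa state only. Every alternative kept the direction of Lgmn in both virus comparisons. The 20th percentile floor, no filter, no trend and the additive fit with all arrays could not change it. They leave its differences at -0.94 and 1.66, as in the main fit. The 1 member called with AdOVA (Lgmn, adjusted p = 0.020 by limma) became 0 with quantile normalization (adjusted p = 0.076), the 20th percentile floor (0.11), no filter (0.46), no trend (0.054), the additive fit (0.056), the fluidics round as a block (0.34) and, chosen after seeing the data, the additive fit without the AdOVA+TNFa array (0.33). For AdIkBa-SR over AdOVA the 1 became 0 with no filter (0.21), the round as a block (0.33) and without that array (0.34). Under these 3 settings limma called 0 of all probe sets in either comparison, with unadjusted p under 0.05 for 1956 to 2416.

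The pathway counts were checked under alternatives chosen after seeing the data. For AdOVA the 9 calls of 95 became 2 with quantile normalization and with the additive fit, and 0 with the 20th percentile floor, no filter, the round as a block, or the AdOVA+TNFa array left out. For AdIkBa-SR over AdOVA the 8 became 4 without the trend, 3 with the additive fit, 5 without the AdIkBa-SR array, and 0 with quantile normalization, the 20th percentile floor, no filter, the round as a block, or the AdOVA+TNFa array left out. Over all results that answer a comparison and all alternatives, 97 values stayed within their limits, 19 counts fell to 0, 5 counts moved by over 1.5 times and 0 calls reversed. One residual degree of freedom and 1 array per group limit all p-values.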
